A study of Homo sapiens with 6 samples.

Results

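The genes of the 7 CDK inhibitors and 3 D cyclins were followed in MOLT-4, a long-established cell line from a human leukemia of the T lineage (T-ALL). These 10 members, out of 60752 gene rows in each table, were found in the tables by their symbols, each of which matched a single row. Polyadenylated RNA was sequenced from 3 wild type libraries (the control of the CRISPR knockout) and 3 labelled IK-KO, made from cells in which CRISPR-Cas had been aimed at IKZF1, which encodes the zinc finger factor IKAROS. Both groups were grown in the same medium with no further treatment. The edited and control cells were bought, and the labels name no clone and do not say whether replicates were separate cultures, so differences between the lines other than IKAROS cannot be told apart from the edit, and the p-values reflect library-to-library spread alone, which may be technical.

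D cyclins bind and activate the kinases CDK4 and CDK6, which phosphorylate the retinoblastoma protein and so release E2F factors for entry into S phase. INK4 inhibitors (the products of CDKN2A, CDKN2B, CDKN2C and CDKN2D, known as p16, p15, p18 and p19) bind CDK4 and CDK6 themselves. CIP/KIP inhibitors (p21, p27 and p57, from CDKN1A, CDKN1B and CDKN1C) bind complexes of cyclins with kinases and above all inhibit CDK2. Cyclin D3 is needed for the expansion of T-cell precursors, and the CDKN2A and CDKN2B locus is among those most often deleted in T-ALL.

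Each library is a table of FPKM, that is, fragments per kilobase of transcript, scaled to the number of mapped fragments, and each value comes with its confidence bounds. FPKM summed to between 699352 and 738051 per library, of which mitochondrial genes took 12.96% to 14.4%. The tables give no counts, so the depth behind a value was judged only by its deposited bounds. IKZF1 RNA was at 134, 124 and 105 FPKM in wild type replicates 1 to 3 and higher, not lower, in IK-KO, with 207, 260 and 207 FPKM. The tables hold no sequence in which the edit could be read. An RNA level does not measure the protein, and the paper reports that the knockout was checked by PCR and western blot. Every T-lineage marker on a list of 15 (CD3 chains, CD2, CD7, LCK, TAL1 and others) had a mean of at least 1 FPKM over the 6 libraries. Of these, 13 reached 1 FPKM in each library. CD4 met that mean only through wild type, at 2.57 to 2.91 FPKM, against 0.254 to 0.479 FPKM in IK-KO. PTCRA was under 1 FPKM only in wild type replicate 2, at 0.986 FPKM. The sum of the 15 markers was 1445 to 1511 FPKM in wild type and 1682 to 1881 FPKM in IK-KO. Single markers went both ways: CD2 lay at 58.9 to 63.7 FPKM in wild type against 4.98 to 5.39 in IK-KO, and CD4, CD5, CD7, CD8A, TAL1 and LMO2 were also lower in each IK-KO library than in any wild type library, whereas CD247 lay at 65.0 to 66.6 against 232 to 262 FPKM, and CD1A, CD3D, CD3G and PTCRA were also higher without overlap. The part of these marker differences in the results was not tested. Markers of B cells, myeloid, erythroid, and fibroblast or epithelial cells numbered 27, none of which exceeded 1.97 FPKM in any library, and HBB, ELANE, CD33 and EPCAM were listed at 0 throughout.

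The levels of the 10 members were far apart, and most of their RNA came from a few of them. CCND3 stood first, followed in wild type by CDKN2C, CDKN2D, CDKN1B and CDKN1A, at means of 265, 40.8, 39.1, 19.5 and 2.27 FPKM. The other 5 members, CDKN1C, CCND2, CDKN2B, CDKN2A and CCND1, had wild type means below 1 FPKM. Ranges of neighbours in this order overlapped between CDKN2C and CDKN2D, between CCND2 and CDKN2B, and between CDKN2B and CDKN2A. In IK-KO the order was the same except that CDKN1B, at 27.5 FPKM, had passed CDKN2D, at 25.7 FPKM, without overlap between their ranges. FPKM is scaled by transcript length, so these levels can be set beside each other, with gene-specific errors of the estimate left aside.

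**Figure D1:**
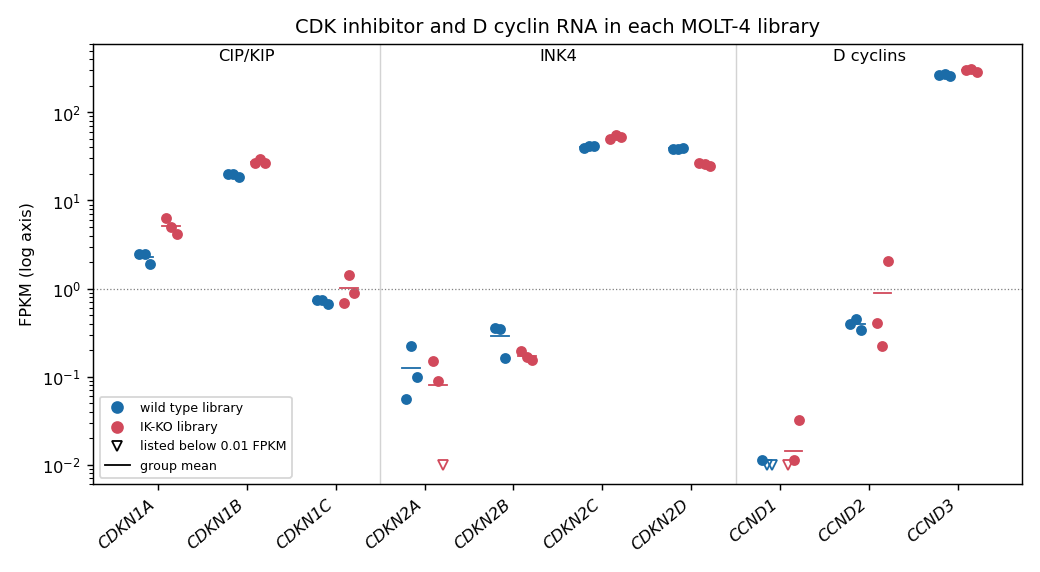
FPKM of each member in each library on a log axis, with 3 wild type (blue) and 3 IK-KO (red) points per gene, a short line at each group mean of at least 0.01 FPKM, open triangles for values listed below 0.01 FPKM, and a dotted line at 1 FPKM. CCND3 lies above all other members in every library, and CDKN2A, CDKN2B and CCND1 stay below 1 FPKM in every library.

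Changes were tested with limma on log2(FPKM + 1) over the 12655 genes with a mean of at least 1 FPKM over the 6 libraries, and a gene is called when its Benjamini-Hochberg adjusted p is under 0.05. On this scale the change of a low gene is understated. Of the 10 members, 5 passed the limit on mean FPKM, with means over 1 FPKM in both groups. All 5 were called, 4 of them higher and 1 lower in IK-KO, where 19.9% of all tested genes were called (10.1% higher and 9.74% lower). Their groups did not overlap, as in 39.0% of all tested genes. The members were chosen with earlier results of these data known, so these shares are descriptive. CDKN1A, CDKN1B, CDKN2C and CCND3 rose, and CDKN2D fell, although CCND3 turned to −0.11 and was not called once the shift of its neighbours on chromosome 6 was removed.

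The upstream sequences of these 5 members are shown because they are the members that were tested and called. They come from RefSeq on GRCh38.p14, in which all 5 had an entry ending at the start of the main transcript, and are read 5′ to 3′ toward that start. Capitals mark GGGAA on either strand (written TTCCC on the other strand), the core of the motif that IKAROS binds, and GGGCGG on either strand (CCGCCC on the other), the GC box bound by SP1.
CDKN1A (chr6:36678464-36678709, plus strand): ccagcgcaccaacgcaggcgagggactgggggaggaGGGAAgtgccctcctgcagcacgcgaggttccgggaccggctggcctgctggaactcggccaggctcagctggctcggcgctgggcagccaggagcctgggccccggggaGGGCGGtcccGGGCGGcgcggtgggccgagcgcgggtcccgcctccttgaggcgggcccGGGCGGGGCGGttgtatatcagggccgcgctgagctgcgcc
CDKN1B (chr12:12717118-12717367, plus strand): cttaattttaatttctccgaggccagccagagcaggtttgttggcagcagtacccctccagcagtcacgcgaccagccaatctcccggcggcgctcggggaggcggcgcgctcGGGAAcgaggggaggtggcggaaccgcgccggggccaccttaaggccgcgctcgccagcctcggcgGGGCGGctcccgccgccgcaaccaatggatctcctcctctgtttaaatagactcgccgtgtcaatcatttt
CDKN2C (chr1:50969995-50970244, plus strand): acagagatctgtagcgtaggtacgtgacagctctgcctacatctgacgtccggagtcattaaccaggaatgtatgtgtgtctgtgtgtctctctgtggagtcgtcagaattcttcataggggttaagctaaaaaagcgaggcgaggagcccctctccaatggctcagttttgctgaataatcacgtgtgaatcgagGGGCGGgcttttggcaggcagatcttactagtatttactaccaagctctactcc
CDKN2D (chr19:10569060-10569229, minus strand): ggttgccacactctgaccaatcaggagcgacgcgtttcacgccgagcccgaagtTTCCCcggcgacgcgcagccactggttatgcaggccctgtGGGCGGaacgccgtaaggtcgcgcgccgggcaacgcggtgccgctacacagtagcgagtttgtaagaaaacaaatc
CCND3 (chr6:41941809-41942058, minus strand): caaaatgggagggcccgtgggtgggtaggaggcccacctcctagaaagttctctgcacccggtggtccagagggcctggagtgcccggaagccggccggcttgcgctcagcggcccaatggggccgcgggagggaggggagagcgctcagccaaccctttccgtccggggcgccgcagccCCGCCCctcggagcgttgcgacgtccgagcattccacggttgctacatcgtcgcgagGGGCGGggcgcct
Where an annotated exon of the gene lies within the 250 bases before the start of the main transcript, the printed run stops there. This leaves 170 bases for CDKN2D and 246 for CDKN1A. CDKN1A, CDKN1B, CDKN2C and CCND3 are also annotated farther upstream than these windows. FPKM is given per gene, so which start was used is not known, and other upstream sequences were not examined. The window of CDKN1A also covers part of an exon of DINOL, a noncoding gene on the opposite strand that was listed at 0 in all 6 libraries.

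Within 250 bases before the start, GGGAA was found 1 time each for CDKN1A, CDKN1B and CDKN2D, and not for CDKN2C or CCND3. That is 3 of 5 windows, beside 59.0% of 34943 windows of the same length before RefSeq starts. The matches lay 214 bases before the start in CDKN1A, 137 in CDKN1B and 196 in CDKN2D. GGGCGG was found in all 5 windows, beside 42.5% of all windows, with 4 matches in CDKN1A, of which a pair overlaps, 2 each in CDKN2D and CCND3, and 1 each in CDKN1B and CDKN2C. In CDKN2D 1 of the 2 lies outside the printed run. The E-box CACGTG occurred only in CDKN2C among the 5, and in 6.32% of all windows. The E2F sites TTTGGCGC and TTTCCCGC, the second of which contains TTCCC, were in none of the 5, and in 0.547% and 1.39% of all windows. GC content was between 64.4% and 76.4% in the 4 other windows and 48.8% in that of CDKN2C, against a median of 58.0% over all windows. The GC box was in all 5 windows, so its presence could not tell them apart. These are matches of letters, not measured binding, and their part in the changes was not tested.

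Among the CIP/KIP inhibitors, CDKN1A, which encodes p21, an inhibitor induced by DNA damage, showed the largest change of all tested members. CDKN1A (ENSG00000124762.13, chromosome 6, 36676460 to 36687339) was at 2.46, 2.44 and 1.89 FPKM in wild type replicates 1 to 3 and at 6.31, 5.03 and 4.16 FPKM in IK-KO replicates 1 to 3. Every IK-KO library lay above every wild type library, and the lowest IK-KO lower bound, 3.404 FPKM, lay above the highest wild type upper bound, 3.15 FPKM. The mean rose from 2.27 ± 0.325 to 5.16 ± 1.08 FPKM (SD, n = 3), a ratio of 2.28. On the log2(FPKM + 1) scale the change was 0.91 (SE 0.16, limma adjusted p 0.00868), which exceeded in size the changes of 94.6% of tested genes. The spread within IK-KO was wide, and without IK-KO replicate 1, the highest, the change was 0.78. CDKN1A stayed a low transcript in both groups, below CDKN1B in every library.

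CDKN1B, which encodes p27, the inhibitor that is high in resting lymphocytes and degraded on entry into the cycle, was the main CIP/KIP transcript. CDKN1B (ENSG00000111276.11, chromosome 12, 12715058 to 12722369) measured 20.1, 20.0 and 18.6 FPKM in the wild type libraries against 26.7, 29.3 and 26.5 FPKM in those of IK-KO. The groups lay apart, and so did all their deposited bounds. The mean rose from 19.5 ± 0.851 to 27.5 ± 1.54 FPKM (SD, n = 3), which is 0.47 ± 0.07 (SE) in log2 units (adjusted p 0.00404 by limma). CDKN1B held 86.8% ± 0.983 of the CIP/KIP sum in wild type and 81.7% ± 2.38 in IK-KO (SD, n = 3). A short row within the gene, AC008115.3, was listed at 1.40 to 4.37 FPKM over the 6 libraries. Whether the quantification used strand is not given in the sources used here, so fragments of overlapping genes cannot be told apart.

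CDKN1C, which encodes p57, an inhibitor expressed from the maternal allele, was low, with lower bounds between 0.165 and 0.894 FPKM. CDKN1C (ENSG00000129757.13, chromosome 11, 2883213 to 2885773) measured 0.749, 0.749 and 0.660 FPKM in the wild type libraries against 0.678, 1.42 and 0.900 FPKM in those of IK-KO. Its groups overlapped, and all but the bounds of IK-KO replicate 2 (0.894 to 1.95 FPKM) began below 0.5 FPKM. Its mean was under the limit for the test. With that limit lowered to 0.5 FPKM, its log2 change of 0.20 (SE 0.18) had a limma adjusted p of 0.494.

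The INK4 inhibitors showed opposite changes in the pair of members that were expressed. CDKN2C and CDKN2D, which encode p18 and p19, were at nearly equal levels in wild type, and in IK-KO CDKN2C rose while CDKN2D fell. CDKN2D (ENSG00000129355.7, chromosome 19, 10566460 to 10569059) measured 39.0, 38.7 and 39.6 FPKM in the wild type libraries against 26.4, 25.9 and 24.9 FPKM in those of IK-KO. Libraries within a group differed by less than 1.5 FPKM, and no IK-KO upper bound (28.98 FPKM at most) reached a wild type lower bound (35.7 FPKM at least). The mean fell from 39.1 ± 0.447 to 25.7 ± 0.758 FPKM (SD, n = 3), which is −0.59 ± 0.05 (SE) in log2 units (adjusted p 0.000598 by limma). It had the smallest adjusted p of the members. No other row of the tables overlaps CDKN2D or CDKN2C.

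CDKN2C (ENSG00000123080.12, chromosome 1, 50960745 to 50974634) measured 39.0, 41.6 and 41.7 FPKM in the wild type libraries against 49.5, 55.5 and 52.4 FPKM in those of IK-KO. The groups and their bounds did not overlap, with 44.5 FPKM as the highest wild type upper bound and 46.4 FPKM as the lowest IK-KO lower bound. The mean rose from 40.8 ± 1.51 to 52.5 ± 3.01 FPKM (SD, n = 3), which is 0.35 ± 0.06 (SE) in log2 units (adjusted p 0.00822 by limma). The ratio of CDKN2C to CDKN2D FPKM was 1.002, 1.08 and 1.05 in wild type and 1.88, 2.14 and 2.10 in IK-KO. CDKN2C thus made up 50.8% ± 0.875 of the INK4 sum in wild type and 66.9% ± 1.65 in IK-KO (SD, n = 3). The sum itself hardly moved, at 80.3 ± 1.65 and 78.4 ± 2.89 FPKM (SD, n = 3), and its groups overlapped.

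**Figure D2:**
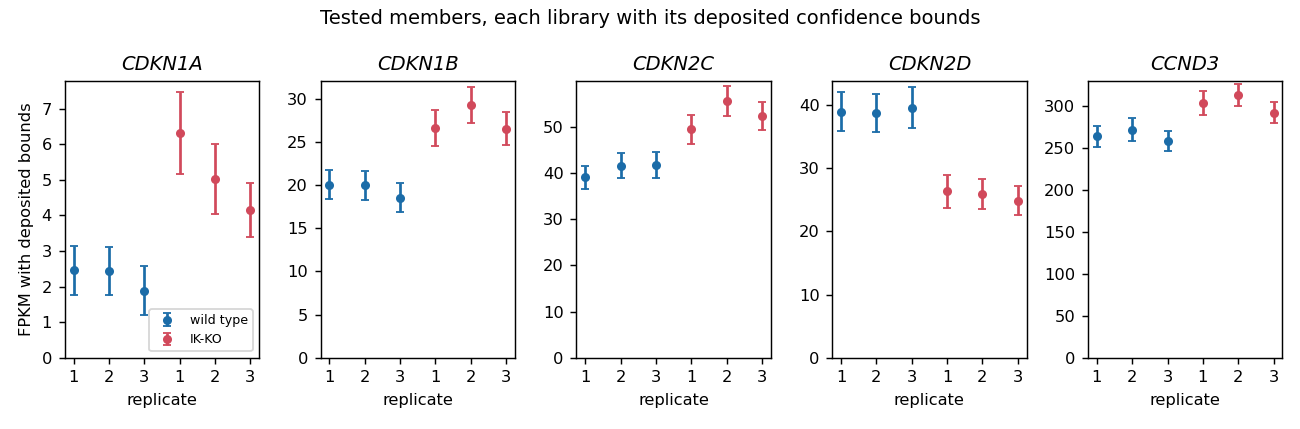
FPKM of the 5 tested members in wild type (blue) and IK-KO (red) replicates 1 to 3, on linear axes from 0, with bars for the deposited confidence bounds. The bounds of the groups lie apart for CDKN1A, CDKN1B, CDKN2C and CDKN2D, while those of CCND3 overlap between wild type replicate 2 (upper bound 285.98 FPKM) and IK-KO replicate 3 (lower bound 279 FPKM).

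CDKN2A and CDKN2B, which encode p16 (with ARF from the same locus) and p15, were hardly detected in either group. CDKN2A (ENSG00000147889.17, chromosome 9, 21967753 to 21995301) was at 0.0551, 0.224 and 0.0993 FPKM in wild type, at 0.151 and 0.0885 FPKM in IK-KO replicates 1 and 2, and at practically 0 in replicate 3. All 6 of its lower bounds were 0, so its deposited bounds do not set it apart from 0. CDKN2B (ENSG00000147883.12, chromosome 9, 22002903 to 22009305) measured 0.352, 0.349 and 0.163 FPKM in the wild type libraries against 0.195, 0.167 and 0.154 FPKM in those of IK-KO. Only wild type replicates 1 and 2 had a lower bound above 0, and the groups overlapped. Both fell short of the limit for the test, and with no limit their limma adjusted p was 0.693 and 0.378.

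Genes on either side of this pair on 9p21 gave a different picture. A list of 11 genes around CDKN2A was taken, of which 5 passed the limit. Of these, 0 were called by limma, beside 19.9% of all tested genes, and 1 (MLLT3) had an unadjusted p under 0.05. The median log2 change of the 5 was −0.23, against 0.02 over all tested genes. With so few genes, a count of 0 called does not show an unchanged region. MTAP, a methionine salvage enzyme encoded next to CDKN2A, measured 24.4, 22.5 and 23.9 FPKM in the wild type libraries against 24.8, 18.0 and 17.7 FPKM in those of IK-KO. CDKN2B-AS1, the noncoding RNA ANRIL that runs across CDKN2B on the opposite strand, measured 7.40, 7.46 and 5.59 FPKM in the wild type libraries against 5.17, 3.48 and 6.15 FPKM in those of IK-KO. Both thus lay well above CDKN2A and CDKN2B in every library, and neither was called (limma adjusted p 0.258 and 0.182). MTAP was called only without IK-KO replicate 1, its highest IK-KO library, at −0.38 (adjusted p 0.0238, range over its alternatives 0.0238 to 0.605). AL359922.1, chosen after its values were seen, is a row that begins at 21802636 and ends at 22029594, and so spans CDKN2A and CDKN2B. It measured 7.74, 8.72 and 10.5 FPKM in the wild type libraries against 4.51, 5.33 and 7.64 FPKM in those of IK-KO (limma adjusted p 0.0743). On the far sides, KLHL9 was between 9.67 and 11.01 FPKM, whereas DMRTA1, ELAVL2, IFNB1 and IFNE were listed at 0 in all 6 libraries. RNA tables do not show whether the DNA of CDKN2A and CDKN2B is present.

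The D cyclins were represented almost wholly by CCND3, the D cyclin of T-cell precursors. CCND3 (ENSG00000112576.12, chromosome 6, 41934933 to 42050357) measured 264, 272 and 259 FPKM in the wild type libraries against 304, 313 and 292 FPKM in those of IK-KO. The groups did not overlap, with 272 FPKM as the highest wild type value and 292 FPKM as the lowest of IK-KO. The mean rose from 265 ± 6.77 to 303 ± 10.4 FPKM (SD, n = 3), which is 0.19 ± 0.04 (SE) in log2 units (adjusted p 0.0242 by limma), and 52.9% of tested genes had a smaller change in size. CCND3 made up between 99.3% and 99.9% of the D cyclin sum in each library. The call was lost without wild type replicate 1 or 3 or IK-KO replicate 1 or 2, at adjusted p from 0.0592 to 0.0808, and without a mean-variance trend (0.0931), and the direction turned as well with its chromosomal neighbours removed (−0.11, adjusted p 0.102), over a range of 0.0182 to 0.102 in its 16 alternatives.

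CCND2, the D cyclin of many mature lymphocytes, and CCND1, which normal lymphocytes do not express, contributed little. CCND2 (ENSG00000118971.8, chromosome 12, 4273762 to 4305353) measured 0.397, 0.455 and 0.342 FPKM in the wild type libraries against 0.408, 0.225 and 2.06 FPKM in those of IK-KO. The high value in IK-KO replicate 3 had bounds of 0 to 5.04 FPKM, so this library alone set the IK-KO mean above that of wild type. Without it the difference of log2 means was −0.09, against 0.32 with it. AC008012.1, which overlaps CCND2, was between 0.320 and 1.41 FPKM. CCND1 (ENSG00000110092.4, chromosome 11, 69641156 to 69654474) did not exceed 0.0320 FPKM in any library, and its lower bound was 0 in all of them.

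Summed by class, the CIP/KIP inhibitors went from 22.5 ± 1.23 to 33.7 ± 2.07 FPKM and the D cyclins from 265 ± 6.82 to 304 ± 9.50 FPKM (SD, n = 3), with no overlap between groups in either sum. The D cyclin sum is nearly all CCND3, whose direction turned with its neighbours removed. The FPKM of all inhibitors over that of the D cyclins was 0.384, 0.382 and 0.396 in wild type and 0.361, 0.375 and 0.370 in IK-KO. This ratio did not overlap either, but its group means, 0.387 ± 0.00778 and 0.369 ± 0.00711 (SD, n = 3), were close. No test was run on these sums.

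Position on the chromosome was taken into account, since genes of chromosomes 6 and 9 differed as a whole between the lines, at a median log2 change of 0.21 over 655 tested genes and −0.35 over 468. CDKN1A and CCND3 both lie on chromosome 6. Of the 50 tested genes nearest CDKN1A, 38 were higher in IK-KO and their median was 0.21. Near CCND3, 43 of 50 were higher, with a median of 0.28. With the median deviation of these neighbours removed in each library, the change of CDKN1A was 0.68 (SE 0.15, limma adjusted p 0.0207) and remained called. That of CCND3 turned to −0.11 (SE 0.04, limma adjusted p 0.102) and was not called, so CCND3 was not higher than the genes around it. The part of the neighbourhood in the CCND3 result was not tested further.

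**Figure D3:**
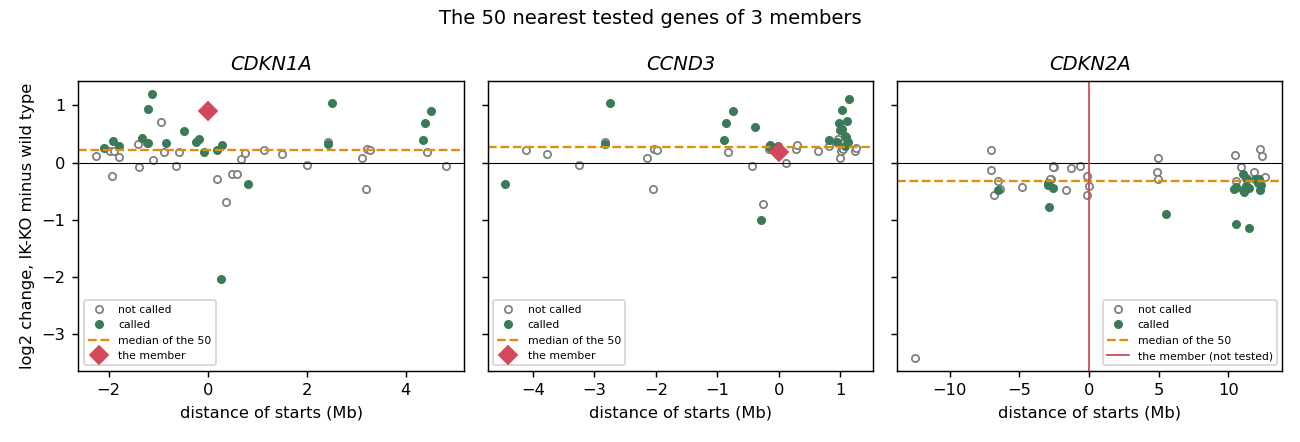
Log2 changes (IK-KO minus wild type) of the 50 tested genes nearest CDKN1A, CCND3 and CDKN2A against the distance of their starts in megabases, with filled green points for called genes, open points for others and a dashed line at their median. The medians are 0.21, 0.28 and −0.32, and the point of CCND3 lies below its dashed line while that of CDKN1A lies above.

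The other 3 tested members kept their calls after the same correction, which called 18.1% of all tested genes. CDKN1B was then at 0.36 (limma adjusted p 0.0130), CDKN2C at 0.30 (0.0339) and CDKN2D at −0.54 (0.000973). Near CDKN2D on chromosome 19, 24 of 50 neighbours were higher and 26 lower, with a median of −0.01. Around CDKN2A and CDKN2B, 45 of the 50 nearest tested genes were lower, with a median of −0.32.

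**Figure D4:**
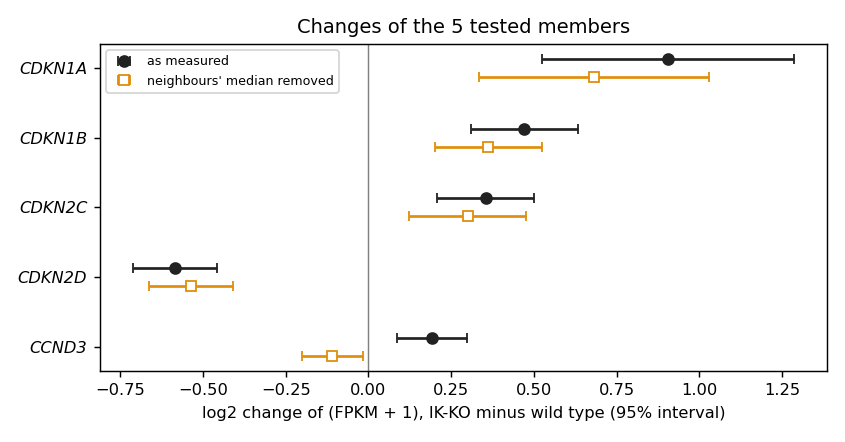
Log2 change of (FPKM + 1), IK-KO minus wild type, for the 5 tested members, with bars for the 95% interval of the limma fit. Black points give the change as measured and open orange squares the change after the median of the 50 nearest tested genes was removed, which moves CCND3 from 0.19 to −0.11 and leaves the other 4 on the same side of 0.

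The partners and targets of these members were examined as lists. These were chosen with earlier results of these data known, so a share above that of all tested genes can reflect the choice. Of 11 G1 kinases and their cyclin partners, 10 were tested and 2 called, CDK2 higher and CCNH lower, which is 20.0% beside 19.9% of all tested genes, with a median log2 change of 0.02, the same as over all. CDK2, the kinase bound by p21 and p27, measured 67.9, 66.8 and 62.1 FPKM in the wild type libraries against 84.6, 86.3 and 92.4 FPKM in those of IK-KO, which is 0.41 ± 0.06 (SE) in log2 units (adjusted p 0.00354 by limma). CCNH, a subunit of the kinase that activates CDKs, changed by −0.36 (limma adjusted p 0.0354) but lost its call in 9 of 16 alternatives, among them each of the 6 that left out a library (adjusted p from 0.0219 to 0.0985 over all 16). CDK4 and CDK6, the partners of D cyclins, were abundant and not called. CDK4 was at 183 ± 1.35 and 200.1 ± 18.8 FPKM (SD, n = 3), a difference in log2 units of 0.12 (95% interval −0.04 to 0.29), and was called only without IK-KO replicate 3, its lowest library, at 0.20 (adjusted p 0.0398, range over its alternatives 0.0398 to 0.553). CDK6 was at 212 ± 17.3 and 208 ± 15.8 FPKM (SD, n = 3), a difference in log2 units of −0.03 (95% interval −0.21 to 0.16). CCNE1 and CCNE2, the E cyclins of CDK2, had log2 changes of −0.12 and 0.22 that were not called (limma adjusted p 0.430 and 0.121).

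All 17 pocket proteins, E2F factors and their partners were tested, and 6 were called, 4 higher and 2 lower, which is 35.3% beside 19.9% of all tested genes, with a median log2 change of 0.03. RB1, which encodes the retinoblastoma protein, rose from 90.8 ± 6.04 to 119 ± 6.76 FPKM (SD, n = 3), which is 0.39 ± 0.07 (SE) in log2 units (adjusted p 0.00799 by limma). E2F3, an activating E2F, rose from 19.6 ± 1.51 to 31.3 ± 1.08 FPKM (SD, n = 3), a difference in log2 units of 0.65, which was 0.44 with its neighbours on chromosome 6 removed and still called. E2F5 rose by 0.67 and E2F6, a repressive E2F, by 0.43 on the log2 scale (limma adjusted p 0.0125 and 0.0236). E2F6 lost its call in 6 of 16 alternatives, among them those without wild type replicate 1 or 3 or IK-KO replicate 1 or 2, and E2F5 only with no limit on FPKM (0.0507). TFDP2, a DNA-binding partner of E2Fs, fell from 164 ± 4.46 to 117 ± 5.08 FPKM (SD, n = 3), a difference in log2 units of −0.49 (limma adjusted p 0.000915). TFDP1, another such partner, was not called, at 115 ± 2.59 and 113 ± 2.27 FPKM (SD, n = 3, limma adjusted p 0.847). E2F7 changed by −0.30 (0.0477) and lost its call in 11 of 16 alternatives, among them each that left out a library. E2F1 did not pass, at −0.04 (95% interval −0.20 to 0.11).

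Of 16 genes for the turnover of inhibitors and cyclins, all tested, 4 were called, 3 higher and 1 lower, which is 25.0% beside 19.9% of all tested genes, with a median log2 change of 0.15 against 0.02 over all. CUL1 and SKP1, which form the core of the SCF ubiquitin ligase, rose by 0.69 and 0.48 on the log2 scale (limma adjusted p 0.000487 and 0.00604). SKP2, the F-box protein that directs this ligase to p27, was not called, at 52.5 ± 2.59 and 56.2 ± 1.37 FPKM (SD, n = 3, limma adjusted p 0.267). CUL4B rose by 0.34 and CKS2 changed by −0.40 (0.0413 and 0.0408), and they lost their calls in 9 and 8 of 16 alternatives. Without each wild type library in turn, and without IK-KO replicate 1 or 3, neither was called. With its neighbours on chromosome 9 removed, CKS2 was at −0.04.

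Among 26 upstream regulators of the inhibitors and D cyclins, 23 were tested and 8 called, 6 higher and 2 lower (34.8%, beside 19.9% of all tested genes), with a median log2 change of 0.10. KLF2, a factor of quiescent T cells, rose from 15.2 ± 0.293 to 28.7 ± 1.57 FPKM (SD, n = 3), a difference in log2 units of 0.87 (limma adjusted p 0.000247). FOXO4, a member of the FOXO factors that activate CDKN1B, rose by 0.72 (0.0200), and lost its call without IK-KO replicate 1 (adjusted p 0.0651) or 2 (0.0688) and with no limit on FPKM (0.0754), over a range of 0.0119 to 0.0754 in its 16 alternatives. ID1, which inhibits E proteins, rose by 1.72 (0.00019). TGFBR2, the receptor through which TGF-beta induces CDKN2B and CDKN1A, fell from 5.40 ± 0.182 to 2.80 ± 0.248 FPKM (SD, n = 3), a difference in log2 units of −0.75 (0.00344), and STAT5A, a cytokine-activated factor, fell by 0.41 on the log2 scale (0.000756). The related STAT5B did not fall, at 68.8 ± 3.93 and 78.7 ± 3.18 FPKM (SD, n = 3), and was not called (limma adjusted p 0.0679).

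**Figure D5:**
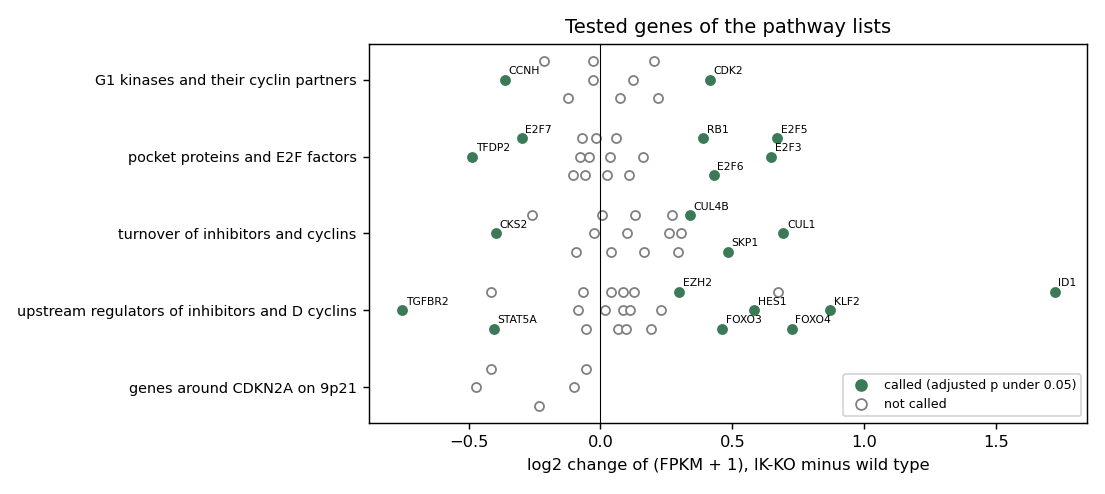
Log2 change of (FPKM + 1), IK-KO minus wild type, for each tested gene of the 5 lists, with filled green points and symbols for called genes and open points for others, and with points spread vertically only for legibility. Called genes lie on both sides of 0 in the first 4 lists, and the list of genes around CDKN2A has none.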

How the data were processed

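Polyadenylated RNA of MOLT-4 was sequenced in 6 libraries, grouped from the labels alone. The deposited tables give FPKM per gene with confidence bounds, which the authors had scaled for transcript length and mapped fragments. The submitters' processing notes name STAR 2.6.1c, Cufflinks 2.2.1, HOMER 4.10 and hg38, without roles. The annotation version and strand setting are not given in the sources used here. Estimates can divide fragments among overlapping genes.

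Of 60752 rows, 29 with a status other than OK in any library were left out, and rows that share an identifier were kept apart. The 12655 rows with a mean of at least 1 FPKM were put on the log2(FPKM + 1) scale. A linear model per gene was fitted by limma (version 3.58.1, under R 4.3.3), moderated by eBayes with a trend on mean level. Tests were two-sided, with Benjamini-Hochberg adjustment. In a check of the procedure on simulated data, genes were drawn independently, without the shifts of chromosomes 6 and 9. That check therefore does not vouch for the calls made here. Coordinates count from 1 on GRCh38. The members and lists were chosen with earlier results of these data known. Named were all members, 11 further genes whatever their values, and from each list the up to 3 largest called rises and falls; any other gene was chosen after its values were seen. Alternatives changed the pseudocount, filter, scaling, trend, block, neighbours and libraries. The result of 1 further list, with the genes named for it, is not reported here.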

Additional observations from a re-analysis of the deposited data

How the results depend on the processing

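Of the 5 called members, CDKN1A, CDKN1B, CDKN2C and CDKN2D kept their direction and call in all 16 alternatives, with log2 changes from 0.68 to 1.14, 0.36 to 0.50, 0.30 to 0.40 and −0.62 to −0.54. CCND3 reversed to −0.11 with its neighbours removed, and was at 0.19 with no call without the mean-variance trend. It lay from 0.17 to 0.22 with a library left out. Its call was lost without wild type replicate 1 or 3 or IK-KO replicate 1 or 2 (limma adjusted p from 0.0592 to 0.0808). The number of members called was 4 or 5. With a pseudocount of 0.1 the untested CDKN2A, CDKN2B and CCND1 moved to −0.36, −0.47 and 0.13. With no limit on FPKM, 1 gene was called among the G1 kinases, 3 among the pocket proteins and E2Fs and 2 in the turnover list. Without the trend, 1 of the G1 kinases and 2 of the turnover list were called. With neighbours removed, 1 gene on 9p21 was called, and MTAP turned to 0.11. With a library left out, calls ranged from 1 to 2 (G1 kinases), 2 to 4 (turnover) and 0 to 1 (9p21), and CDK6 ranged from −0.0974 to 0.0138, above 0 without wild type replicate 1 (0.0036), wild type replicate 2 (0.0092) or IK-KO replicate 2. The cause of these moves was not tested.

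Replicate numbers were shared between groups, but deviations of same-numbered libraries correlated only at 0.0665, 0.025 and 0.005 across genes, and not every library correlated best with its own number. The replicate block called 1807 genes in place of 2513, left all 5 members called and called 1 of the G1 kinases. Without counts, the precision of values near 0 FPKM is known only from the deposited bounds, and with no limit on FPKM none of the 5 low members was called (limma adjusted p from 0.378 to 0.693).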
